A study of Rattus norvegicus with 6 samples.

Results

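The genes described here are 10 components of interleukin 6 and NF-kB signaling in mammary tumors of F344 rats, namely the cytokines Il6, Lif, Osm and Tnf, the receptor chains Osmr and Il6st, the transcription factor Stat3 and the feedback inhibitors Socs3, Nfkbia and Tnfaip3. They were taken by symbol from the deposited read count table, where each of the 10 had a single row among 30562 rows. Bulk RNA-seq had been run on 6 carcinogen-induced mammary tumors, a single library each. The tumors numbered 102, 107 and 116 had grown in older rats, and those numbered 157, 158 and 167 in younger rats. Older rats were obtained at 19 to 21 months and received the carcinogen at 21 to 23 months of age, whereas younger rats were obtained at 6 to 8 weeks and received it at 4 months. All rats were females of the inbred strain F344 (the younger ones are described as virgin), with a 50 mg pellet of the progestin MPA under the skin and a single gavage of DMBA at 65 mg per kg, so the comparison holds no untreated tissue. The younger tumors were all that formed in that group, while the older ones were chosen for having enough frozen tissue. The authors' account gives as many younger rats with tumors as younger tumors, so these came from separate rats. For the older tumors the labels do not say whether each came from its own rat, so the p-values measure only the spread between the 6 tumors.

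Cytokines of the interleukin 6 family bind receptors that share the signaling chain gp130, the product of Il6st, and Janus kinases at this chain activate STAT3, which switches on Socs3, an inhibitor of the same receptor complex. In the mammary gland, LIF and STAT3 drive the regression of the milk-producing epithelium after weaning. TNF acts through its own receptors on the kinase complex that releases NF-kB from its inhibitor IkB-alpha, the product of Nfkbia. NF-kB in turn induces Nfkbia and Tnfaip3, which encodes the ubiquitin-editing enzyme A20, so both transcripts are feedback brakes and are widely read as targets of the pathway. Circulating interleukin 6 and TNF are the cytokines most often linked to the inflammation of aging.

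Nfkbia and Tnfaip3 were the 2 genes of the 10 whose levels were higher in every older tumor than in every younger one, and their promoters are shown for that reason. The sequences are from RefSeq (rat assembly GRCr8) and run from 250 bases before to 50 bases after the annotated start of the gene, with matches to the NF-kB consensus on either strand in capitals. The window of Nfkbia lies on the minus strand at chr6:78597023-78597322 and that of Tnfaip3 on the minus strand at chr1:15543930-15544229.
Nfkbia: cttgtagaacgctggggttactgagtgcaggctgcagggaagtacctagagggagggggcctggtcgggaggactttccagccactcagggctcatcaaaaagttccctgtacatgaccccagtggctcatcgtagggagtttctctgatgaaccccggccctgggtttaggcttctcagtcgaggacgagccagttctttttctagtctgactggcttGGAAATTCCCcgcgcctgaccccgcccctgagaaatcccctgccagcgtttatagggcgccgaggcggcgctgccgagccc
Tnfaip3: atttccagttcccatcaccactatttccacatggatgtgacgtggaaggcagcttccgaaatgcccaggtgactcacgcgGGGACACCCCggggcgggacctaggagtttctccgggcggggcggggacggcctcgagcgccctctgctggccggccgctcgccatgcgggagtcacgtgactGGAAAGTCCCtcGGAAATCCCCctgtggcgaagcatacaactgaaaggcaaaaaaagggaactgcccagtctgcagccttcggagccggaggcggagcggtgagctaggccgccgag
The Nfkbia window held 1 match, GGAAATTCCC, from 31 to 22 bases before the start. The Tnfaip3 window held 3 matches, GGGACACCCC from 170 to 161 bases, GGAAAGTCCC from 67 to 58 bases and GGAAATCCCC from 55 to 46 bases before the start. Among all 33469 promoter windows of that table, 7.51% held at least 1 such match and 0.457% held 2 or more. Of the 10 genes, 8 had a window in the table (Lif and Osm had none), and 5 of those held a match: Il6, Il6st, Socs3, Nfkbia and Tnfaip3. The letters TTCNNNGAA, bound by STAT factors, were found in 0 of the 8 windows and in 8.87% of all windows. The Il6st match spans the annotated start, from 1 base before to 9 bases after it. Annotated starts were not checked against where transcription begins, so a window need not hold the promoter of its gene. This limits the matches and the absence of TTCNNNGAA alike, for Il6st and Socs3 among others. These are matches of letters in a short window and say nothing of binding in these tumors.

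The read counts summed to between 3508571 and 6525830 per tumor. Values are given as CPM, the count of a gene relative to the total count of its library, after scaling between libraries by edgeR's TMM factors, so levels can be compared between tumors for the same gene but not between genes, which differ in length. A gene needed enough counts to be tested, and 8 of the 10 genes passed edgeR's filter, along with 13139 named genes in all, while Il6 and Osm did not. A count of 3, taken as the floor, corresponded to between 0.53 and 1.03 CPM and covers counting error only. Tumor 102 stood apart from the rest, since its log2 CPM over the genes tested had a mean correlation of 0.829 with the other libraries, where those 5 libraries had 0.867 to 0.898. In bulk tumors, a lower number of cells of a type and less RNA per cell cannot be told apart.

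**Figure D1:**
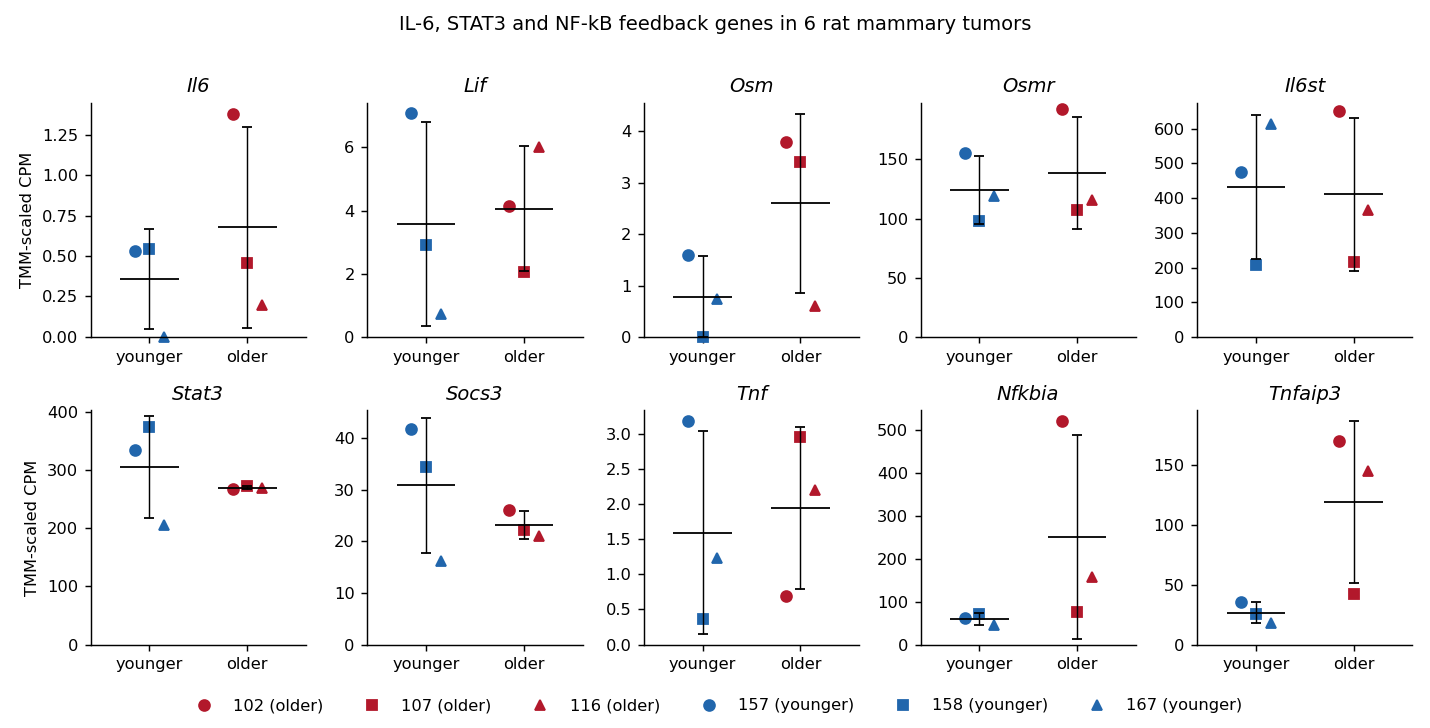
TMM-scaled CPM (linear axes from 0) of the 10 genes in each tumor, with younger tumors in blue and older tumors in red. Horizontal bars are group means and error bars are 1 SD (n = 3), cut at 0 where they would pass below it. The groups are apart for Nfkbia and Tnfaip3, with tumor 102 far above the other tumors for Nfkbia, and overlap for the other 8 genes.

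The NF-kB feedback genes showed the widest differences by age among the 10 genes. Nfkbia encodes IkB-alpha, which holds NF-kB in the cytoplasm. It was at 519.5 CPM in tumor 102, 75.0 CPM in tumor 107 and 156 CPM in tumor 116 from older rats, and at 62.2 CPM in tumor 157, 71.1 CPM in tumor 158 and 44.7 CPM in tumor 167 from younger rats. The groups did not overlap, although tumor 107 lay close above the highest younger tumor and tumor 102 far above all the rest. The group means were 250.3 ± 237 CPM (SD, n = 3) in older and 59.3 ± 13.4 CPM (SD, n = 3) in younger tumors. This corresponded to a 4.21-fold difference, or a log2 fold change of 2.07 (standard error, SE, 0.66, 95% interval 0.53 to 3.61), which did not pass the threshold over all genes tested (unadjusted p = 0.015, adjusted p = 0.405, edgeR's quasi-likelihood test). Without tumor 102 the log2 fold change was 0.96 (SE 0.38, adjusted p = 0.644, edgeR). Without tumor 167 it was 1.90 (SE 0.81), with an unadjusted p of 0.0548 (edgeR).

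Tnfaip3 encodes A20, which removes the ubiquitin chains that carry the TNF signal. Its level was 169.7 CPM in tumor 102, 42.0 CPM in tumor 107 and 145 CPM in tumor 116, against 35.5 CPM in tumor 157, 25.5 CPM in tumor 158 and 18.0 CPM in tumor 167. All older tumors were higher than all younger ones, and here tumor 116 was close to tumor 102 while tumor 107 was again the lowest of the older tumors. The older mean was 119 ± 67.7 CPM (SD, n = 3) and the younger mean 26.4 ± 8.79 CPM (SD, n = 3). This was a 4.49-fold difference and a log2 fold change of 2.17 (SE 0.53, 95% interval 0.94 to 3.40). The gene did not pass the threshold with edgeR (unadjusted p = 0.00384, adjusted p = 0.315), whereas DESeq2, the tool that the study's methods name, gave an adjusted p of 0.00764. Across the alternatives the adjusted p of Tnfaip3 ran from 0.00764 to 0.726, and its log2 fold change from 1.51 to 2.57.

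With edgeR, 0 of the 8 genes tested had an adjusted p under 0.05, which was also the case for 0% of all genes tested, where 1128 had an unadjusted p under 0.05. DESeq2 called Tnfaip3 alone among the 8 genes and 2.49% of all genes it tested. At an unadjusted p under 0.05 there were 2 of the 8 genes, Nfkbia and Tnfaip3, both higher in older tumors, where the share over all genes tested was 8.59%, made up of 5.3% higher and 3.29% lower in older tumors. The age groups did not overlap for the same 2 genes, where the share over all genes tested was 12.1%, made up of 6.51% higher and 5.58% lower. By sign alone, 5 of the 8 genes had a log2 fold change above 0, as did 49.6% of all genes tested. The median log2 fold change of the 8 genes was 0.16, beside 0.00 over all genes tested. An exact permutation test of 3 tumors against 3 cannot give a two-sided p below 0.1.

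Of the genes that carry the signal from gp130, Stat3 and its feedback inhibitor Socs3 were lower on average in older tumors, with groups that overlapped. Stat3 was nearly the same in all older tumors, at 268 CPM in tumor 102, 273 CPM in tumor 107 and 269 CPM in tumor 116. The younger tumors were spread around those values, at 335 CPM in tumor 157, 375 CPM in tumor 158 and 207 CPM in tumor 167. The means were 270.2 ± 2.63 CPM (SD, n = 3) in older and 306 ± 88.1 CPM (SD, n = 3) in younger tumors, and the log2 fold change was -0.18 (SE 0.28, 95% interval -0.84 to 0.48, adjusted p = 0.937, edgeR).

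Socs3, whose protein blocks the kinases at gp130, was also less variable among older than among younger tumors. It was at 26.2 CPM in tumor 102, 22.3 CPM in tumor 107 and 21.0 CPM in tumor 116 from older rats and at 41.9 CPM in tumor 157, 34.4 CPM in tumor 158 and 16.3 CPM in tumor 167 from younger rats. Tumor 167 was the lowest of the 6 for Stat3 and Socs3 alike, and tumors 157 and 158 were the highest pair for both. The log2 fold change of Socs3 was -0.42 (SE 0.37, 95% interval -1.29 to 0.45, adjusted p = 0.868, edgeR). Without tumor 167 it was -0.73 (SE 0.27, unadjusted p = 0.0363, adjusted p = 0.57, edgeR) and that of Stat3 was -0.40 (SE 0.24, adjusted p = 0.705, edgeR), and both genes were then lower in every older tumor. In that comparison of 3 tumors with 2, the groups did not overlap for 26.0% of all genes tested, and for 4 of the genes described here.

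The receptor chains had the log2 fold changes nearest to 0. Il6st, the chain that all receptors of the family share, was at 651 CPM in tumor 102, 217 CPM in tumor 107 and 365 CPM in tumor 116, and at 474 CPM in tumor 157, 208 CPM in tumor 158 and 614 CPM in tumor 167. Each group held tumors near the top and near the bottom of the range, and the log2 fold change was -0.07 (SE 0.51, 95% interval -1.27 to 1.13, adjusted p = 0.986, edgeR). Osmr, the chain that pairs with gp130 to bind oncostatin M, was at 193 CPM in tumor 102, 107 CPM in tumor 107 and 116 CPM in tumor 116 and at 155 CPM in tumor 157, 98.2 CPM in tumor 158 and 119 CPM in tumor 167. Tumor 102 was the highest for Il6st and Osmr, and tumor 158 the lowest for both. For Osmr the log2 fold change was 0.15 (SE 0.31, 95% interval -0.57 to 0.88, adjusted p = 0.947, edgeR), and it turned to -0.16 without tumor 102.

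The cytokines themselves had low counts. Il6, the founding cytokine of the family, had 4 counts in tumor 102, 2 in tumor 107 and 1 in tumor 116, and 3 in tumor 157, 3 in tumor 158 and 0 in tumor 167, which sums to 7 counts in older and 6 in younger tumors. In tumor 102, the tumor with the most, these counts corresponded to 1.38 CPM, with an exact 95% Poisson interval from 0.375 to 3.53 CPM. For the 0 counts in tumor 167 the upper limit of that interval was 0.911 CPM, beside 0.741 CPM for the floor of 3 counts. No difference in Il6 by age was found with these counts (two-sided exact permutation test on CPM, p = 0.6). That test cannot give a p below 0.1 for 3 tumors against 3 at any depth.

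Osm, which encodes oncostatin M, a cytokine made mainly by myeloid and T cells, had 11 counts in tumor 102, 15 in tumor 107 and 3 in tumor 116, and 9 in tumor 157, 0 in tumor 158 and 3 in tumor 167. These correspond to 2.60 ± 1.74 CPM (SD, n = 3) in older and 0.777 ± 0.796 CPM (SD, n = 3) in younger tumors. Tumors 102 and 107 were above all younger tumors but tumor 116 was not, and the difference did not pass the test (two-sided exact permutation test, p = 0.3, where 0.1 is the smallest that 3 against 3 can give). Lif, the cytokine of mammary involution, was between 2.05 and 6.01 CPM in older and between 0.741 and 7.07 CPM in younger tumors, so the younger range enclosed the older one. Its log2 fold change was 0.17 (SE 0.78, 95% interval -1.64 to 1.98, adjusted p = 0.979, edgeR).

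Tnf, the cytokine upstream of NF-kB, was at 0.689 CPM in tumor 102, 2.95 CPM in tumor 107 and 2.20 CPM in tumor 116 and at 3.18 CPM in tumor 157, 0.362 CPM in tumor 158 and 1.23 CPM in tumor 167. The log2 fold change was 0.32 (SE 0.84, 95% interval -1.64 to 2.27, adjusted p = 0.965, edgeR). Tumor 102, with the highest Nfkbia and Tnfaip3 of the 6, had the second lowest Tnf, on 2 counts. The intervals of Tnf and Lif each include a 3-fold difference in either direction, so differences of that size lie within the error of these tumors.

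**Figure D2:**
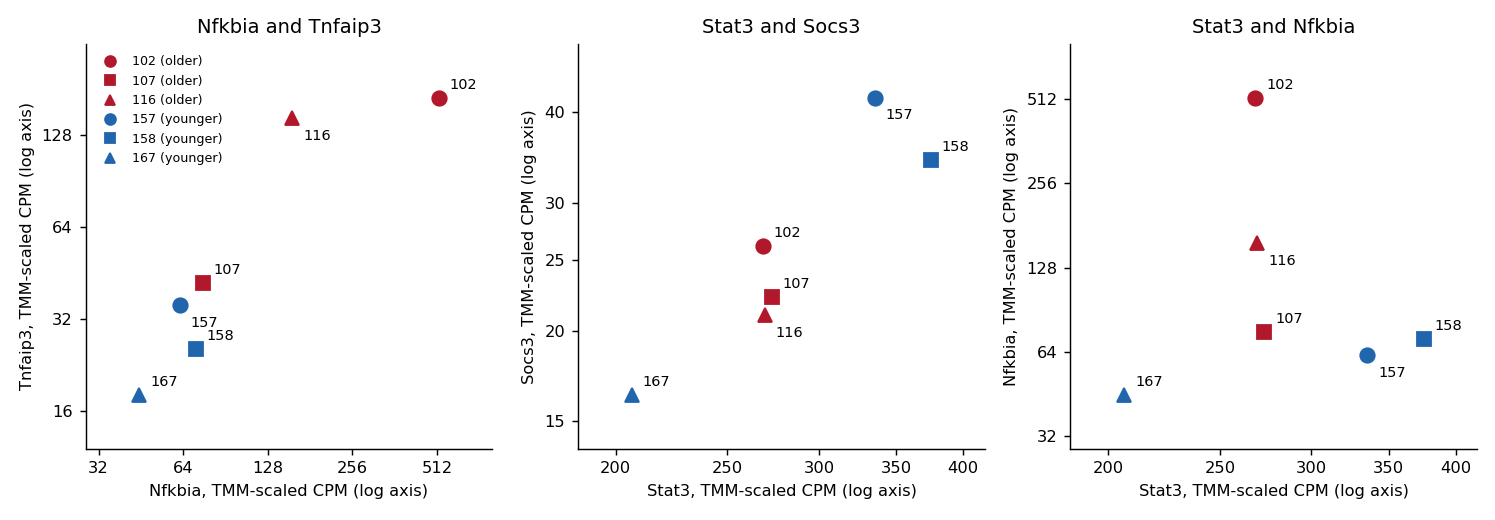
Levels of pairs of genes in the 6 tumors, in TMM-scaled CPM on log axes, with each point labelled by its tumor. Nfkbia and Tnfaip3 line up with tumors 102 and 116 at the top, Stat3 and Socs3 line up along another order with tumors 157 and 158 at the top, and Stat3 stays near 270.2 CPM in the older tumors while Nfkbia runs from 75.0 to 519.5 CPM.

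Across the 6 tumors, 3 pairs of genes had closely related levels. Nfkbia and Tnfaip3 had a Pearson correlation of log2 CPM of 0.91 and Stat3 and Socs3 of 0.91, which remained between 0.89 and 0.97 and between 0.83 and 0.95 when each tumor was left out in turn. Osmr and Il6st had a correlation of 0.78 (0.69 to 0.96 with 1 tumor left out). Between genes of different pairs the correlation ran from -0.56 (Il6st and Stat3) to 0.65 (Osmr and Nfkbia), and the latter was -0.19 without tumor 102. It was -0.03 for Stat3 and Nfkbia and 0.01 for Socs3 and Nfkbia. Lif, which is in none of the 3 pairs, had 0.67 with Socs3, 0.60 with Stat3 and 0.61 with Tnfaip3, and the median over all 28 pairs of the 8 genes was 0.14. These are descriptions over 6 tumors that share the age difference and the state of tumor 102, and no test was made of them.

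With so few tumors, many genes follow any given gene closely. Among 12952 genes with a mean of at least 1 CPM, the number with a correlation above 0.9 ran from 41 for Lif to 263 for Nfkbia. The closest were Zc3h12a (0.990) and Srpx2 (0.989) for Lif, Ago1 (0.995) and Upp1 (0.989) for Osmr, and Cpne1 (0.994) and Mkrn3 (0.985) for Il6st. They were Nomo1 (0.998) and Tesk1 (0.997) for Stat3 and Smg9 (0.986) and Eif4g1 (0.981) for Socs3. For Tnf they were Ly75 (0.987) and RT1-N3 (0.985), for Nfkbia Samd11 (0.993) and Pdss1 (0.990), and for Tnfaip3 Relt (0.994), a receptor of the TNF receptor superfamily, and Sav1 (0.988). Zc3h12a encodes an RNase that degrades Il6 mRNA.

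The other genes of these pathways were described from 8 lists with 67 genes, of which 60 could be tested; Il27ra was left out because its name stands on 2 rows. With edgeR 0 of the 60 passed an adjusted p of 0.05, and DESeq2 called 2, Il6r and Vcam1. At an unadjusted p under 0.05, 8 were higher and 2 lower in older tumors, 16.7% of the 60 beside 8.59% of all genes tested. For 13 of the 60 (21.7%) the age groups did not overlap, 10 higher and 3 lower in older tumors, beside 12.1% of all genes tested. In each list, the 2 genes with the smallest unadjusted p are named, which is a description and no test. Any others named were picked after their values were seen.

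Among receptors of the gp130 family, Il6r, the chain that binds interleukin 6 itself, was at 64.0 CPM in tumor 102, 52.0 CPM in tumor 107 and 25.03 CPM in tumor 116, and at 8.13 CPM in tumor 157, 15.7 CPM in tumor 158 and 3.70 CPM in tumor 167. All older tumors were higher, by a log2 fold change of 2.34 (SE 0.57, 95% interval 1.01 to 3.67, adjusted p = 0.315 with edgeR and 0.00754 with DESeq2). The log2 fold change of Il6r was between 1.97 and 2.97 with any single tumor left out. Lifr, the receptor chain for LIF and some related cytokines, was at 216 ± 94.1 CPM (SD, n = 3) in older and 109.8 ± 15.2 CPM (SD, n = 3) in younger tumors, with groups that overlapped (log2 fold change 0.97, SE 0.35, adjusted p = 0.481, edgeR). Il11ra1, the receptor chain for interleukin 11 and the remaining gene of this list that could be tested, had a log2 fold change of -0.08 (SE 0.37), near that of the shared chain Il6st. Cntfr, with too few counts to be tested, had a lower mean in older tumors (0.593 CPM beside 4.17 CPM), with groups that overlapped. Its counts were 4 in tumor 102, 0 in tumor 107 and 2 in tumor 116, and 31 in tumor 157, 32 in tumor 158 and 5 in tumor 167. Differences between these genes were not tested.

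Of 4 other cytokines of the family that could be tested, Ctf1, which encodes cardiotrophin 1, was lower in every older tumor, at 14.8 ± 7.05 CPM against 28.0 ± 5.01 CPM in younger tumors (SD, n = 3 each; log2 fold change -0.91, SE 0.38, adjusted p = 0.569, edgeR). Cntf overlapped between the groups (log2 fold change -0.27). Il11 had a count in tumor 157 alone.

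Among kinases and negative regulators of the pathway, 6 of 9 had a log2 fold change above 0 (49.6% of all genes tested), and 1 had an unadjusted p under 0.05, higher in older tumors (5.3% of all genes tested). That gene was Socs2, an inhibitor of the same family as Socs3, and its log2 fold change of 2.35 rested on tumor 107 at 73.6 CPM, since the other tumors were between 4.16 and 7.96 CPM and the value was 0.22 without that tumor. Socs1, the inhibitor of interferon signaling, was at 14.0 ± 5.19 CPM (SD, n = 3) in older and between 0.543 and 10.1 CPM in younger tumors, without overlap (log2 fold change 1.64, SE 0.86, adjusted p = 0.694, edgeR). The value was 3.12 without tumor 157, which had the highest Socs1 of the younger tumors, and between 1.12 and 1.79 without any other single tumor.

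The list of 10 STAT3 target genes was split, with 5 of 10 above 0 and a median log2 fold change of -0.01. Timp1, an inhibitor of metalloproteinases, was at 11.02 CPM in tumor 102, 2.73 CPM in tumor 107 and 10.2 CPM in tumor 116, and between 21.0 and 21.5 CPM in the younger tumors. It was lower in every older tumor (log2 fold change -1.42, SE 0.50, 95% interval -2.59 to -0.25, adjusted p = 0.47, edgeR). Bcl3, an IkB family protein that works in the nucleus, was at 30.0 ± 6.96 CPM in older and 47.5 ± 14.4 CPM in younger tumors (SD, n = 3 each), with groups that overlapped (log2 fold change -0.67, SE 0.31, adjusted p = 0.629, edgeR). Among the genes above 0, Pim1 was higher in every older tumor (log2 fold change 0.83, SE 0.45, adjusted p = 0.717, edgeR). Mcl1 had the largest log2 fold change of the list, 1.02, with groups that overlapped and tumor 102 at 515 CPM.

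**Figure D3:**
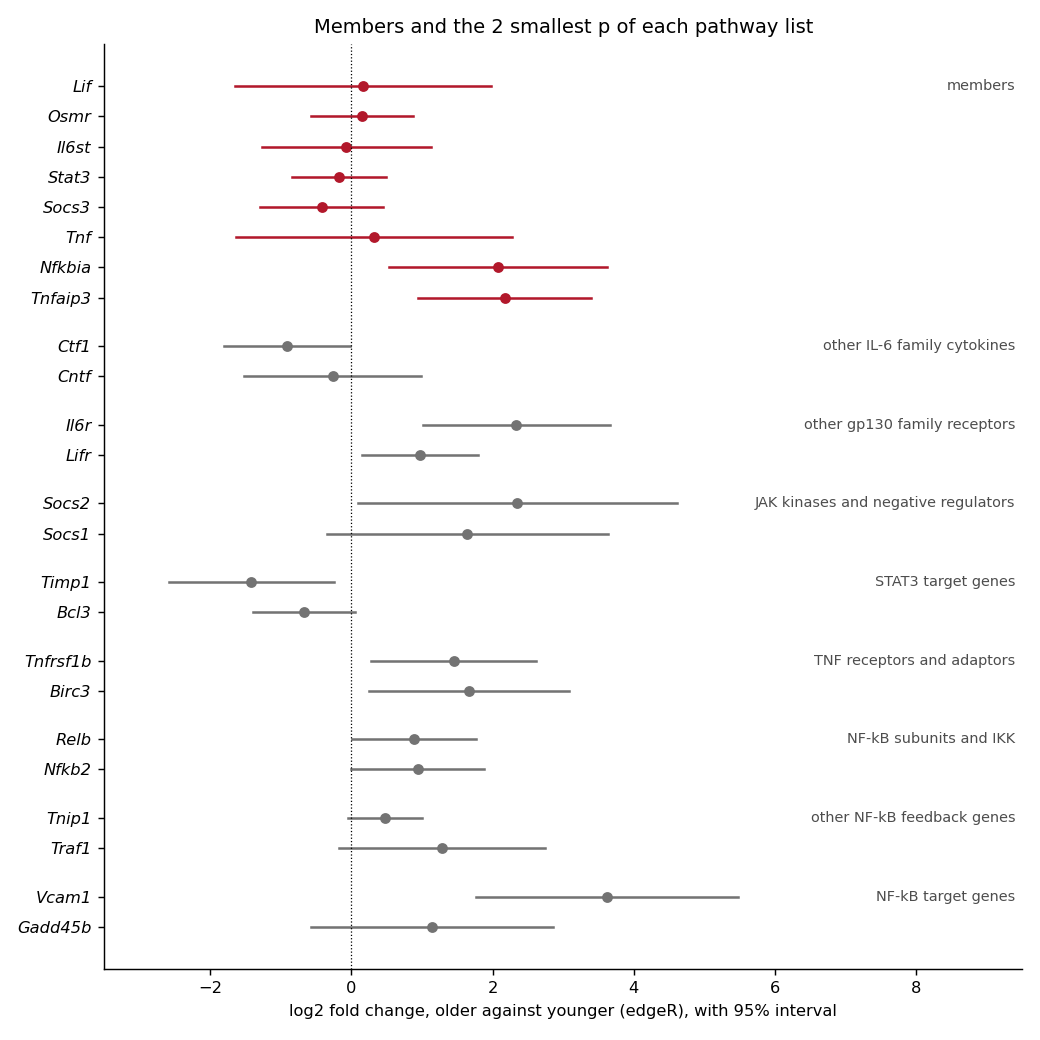
Log2 fold change of older against younger tumors from edgeR, with the 95% interval, for the 8 genes tested (red) and for the 2 genes with the smallest p in each pathway list (grey), so the grey genes were picked by their p. The intervals of Nfkbia and Tnfaip3 lie above 0 and those of the other 6 genes in red include 0; no gene shown passed the adjusted threshold with edgeR.

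On the TNF side, Tnfrsf1b, which encodes TNF receptor 2, was at 51.9 ± 22.4 CPM in older and 18.9 ± 10.4 CPM in younger tumors (SD, n = 3 each) and did not overlap between the groups. Its log2 fold change was 1.45 (SE 0.50, 95% interval 0.28 to 2.62, adjusted p = 0.451, edgeR). Birc3, an inhibitor of apoptosis in the receptor complex and a target of NF-kB, was at 122 CPM in tumor 102, 25.5 CPM in tumor 107 and 70.5 CPM in tumor 116, and between 12.8 and 37.0 CPM in younger tumors. Tumor 107 thus lay within the younger range (log2 fold change 1.66, SE 0.61, adjusted p = 0.49, edgeR, and 1.08 to 2.20 with 1 tumor left out). In the list of TNF receptors and adaptors, 3 of 7 genes had an unadjusted p under 0.05, all higher in older tumors, beside 5.3% of all genes tested.

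The NF-kB subunits showed smaller differences. Relb and Nfkb2, which make up the dimer of the non-canonical pathway, had log2 fold changes of 0.89 (SE 0.38, adjusted p = 0.575, edgeR) and 0.94 (SE 0.40, adjusted p = 0.58, edgeR), with overlapping groups. Both were high in tumors 102 and 116, at 39.2 and 41.3 CPM for Relb and 76.4 and 84.1 CPM for Nfkb2, and low in tumor 107, at 21.6 and 31.4 CPM. Tumor 107 was also the lowest of the older tumors for Tnfaip3 and Nfkbia. Of the 9 subunit and kinase genes tested, 8 had a log2 fold change above 0 (49.6% of all genes tested), with a median of 0.07.

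Other feedback genes of NF-kB leaned the same way by sign, with 9 of 10 above 0 (49.6% of all genes tested) and a median log2 fold change of 0.50, and 0 of the 10 had an unadjusted p under 0.05. The gene below 0 was Nfkbie (log2 fold change -0.20, SE 0.29, adjusted p = 0.93, edgeR). The sums of the list overlapped, at 1507 to 1675 CPM in older and 1448 to 1623 CPM in younger tumors. Tnip1, whose protein works with A20, was at 101 ± 7.71 CPM in older and 72.4 ± 12.1 CPM in younger tumors (SD, n = 3 each), without overlap (log2 fold change 0.48, SE 0.22, adjusted p = 0.636, edgeR). Traf1 was at 6.06 ± 4.70 CPM and 2.51 ± 0.455 CPM (SD, n = 3 each), with overlap.

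Among NF-kB target genes, Vcam1, an adhesion molecule that captures leukocytes, had the smallest p. It was at 82.3 CPM in tumor 102, 12.05 CPM in tumor 107 and 29.8 CPM in tumor 116, and at 5.13 CPM in tumor 157, 3.44 CPM in tumor 158 and 1.23 CPM in tumor 167. The groups did not overlap and the order of the older tumors was that of Nfkbia. The log2 fold change was 3.62 (SE 0.80, 95% interval 1.76 to 5.48, adjusted p = 0.271 with edgeR and 0.000333 with DESeq2), and it was 2.65 without tumor 102. Gadd45b was high in tumor 102 at 29.6 CPM and between 4.24 and 8.89 CPM in the other tumors. The median log2 fold change of the 8 target genes tested was 0.32.

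Other features of the tumors were set beside these genes. Nfkbia and Tnfaip3 belong to the transcripts that cells can induce within minutes, and the summed level of 7 immediate early genes (Fos, Fosb, Jun, Egr1, Atf3, Ier2 and Nr4a1) was 2857 CPM in tumor 102, beside 662 to 678 CPM in the other older tumors and 657 to 1163 CPM in the younger ones. Tumor 116, with the second highest Nfkbia and Tnfaip3, had a sum of 662 CPM, within the range of the tumors with low Nfkbia. Of these 7 genes, all had a log2 fold change above 0 (49.6% of all genes tested) and 1, Atf3, had an unadjusted p under 0.05 (5.3% of all genes tested, higher in older tumors). Tumor 102 was the highest tumor for all 7, and the groups overlapped for each gene but Atf3. For Egr1, tumors 107 and 116 were at 206 and 129 CPM, below the younger tumors at 225 to 307 CPM. The part of an immediate early response in the levels of Nfkbia and Tnfaip3 was not tested.

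Some leukocyte markers differed between the groups. The 4 T cell markers in the table summed to between 14.8 and 85.2 CPM in older and between 3.98 and 7.25 CPM in younger tumors. Cd8a was 74.6 CPM of the sum in tumor 107, beside 10.3 CPM in tumor 102 and 6.81 CPM in tumor 116. The 2 markers that could be tested, Cd3e (at most 26 counts in a tumor) and Cd8a, were both higher in every older tumor (6.51% of all genes tested). Cd3d was at 0 in tumors 102 and 158. Of 9 macrophage markers, 8 had a log2 fold change above 0 (49.6% of all genes tested) and 5 an unadjusted p under 0.05, all 5 higher in older tumors (5.3% of all genes tested). Only 4 of the 9 were higher in every older tumor (6.51% of all genes tested). Cd163, among the 5, rested on tumor 102 at 59.6 CPM, since the other tumors were between 1.97 and 4.77 CPM. The sums of the 9 markers overlapped, at 435 to 538 CPM in older and 157 to 541 CPM in younger tumors. Cd14 was 421 CPM of the sum in tumor 158, and without Cd14, a choice made after the data were seen, the sums were 211 to 408 CPM in older and 97.0 to 164 CPM in younger tumors and did not overlap. Among 5 neutrophil markers Ncf1, which macrophages also express, could be tested and was higher in every older tumor. The other 4 were low, overlapped between the groups and had lower means in older tumors, at 0.352 and 1.03 CPM in older and younger tumors for S100a8, 0.200 and 0.356 CPM for S100a9, 0.894 and 1.30 CPM for Csf3r, and 0.639 and 2.87 CPM for Cxcr2. Of the B and plasma cell markers, Ms4a1 was at 0 in all 6 tumors, Jchain was higher in every older tumor, and Cd79a, on at most 7 counts, was lower in every older tumor (0.494 CPM on average beside 1.19 CPM). The 4 mast cell markers summed to 248 to 296 CPM in older and 55.9 to 137 CPM in younger tumors. Kit, which mammary epithelium also expresses, was most of that sum in each tumor except tumor 167, where Cpa3 was at 75.8 CPM and Kit at 51.1 CPM. Cpa3, with a lower mean in older tumors (20.6 CPM beside 31.1 CPM), and Cma1 overlapped between the groups. Fibroblast sums (136 to 1117 CPM in older and 125 to 864 CPM in younger tumors) and endothelial sums (101 to 388 CPM and 67.9 to 317 CPM) overlapped, as did those of myoepithelial and muscle markers, and adipocyte markers summed to 167 CPM in tumor 102 and to at most 30.7 CPM in the other tumors.

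The labelled tissue was reflected in its markers, since Epcam, Krt8, Krt18 and Cdh1 were all well above the floor in every tumor. Their sum was lower in every older tumor, at 1138 to 1229 CPM beside 1479 to 1731 CPM in the younger ones. Taken singly, Epcam and Krt8 were lower in every older tumor (5.58% of all genes tested), while Krt18 and Cdh1 overlapped between the groups. Of these 4 genes, 0 had an unadjusted p under 0.05 (edgeR). The part of cell composition in the levels of Nfkbia, Tnfaip3, Il6r, Tnfrsf1b and Vcam1 was not tested, and these bulk counts do not assign a transcript to a cell type.

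**Figure D4:**
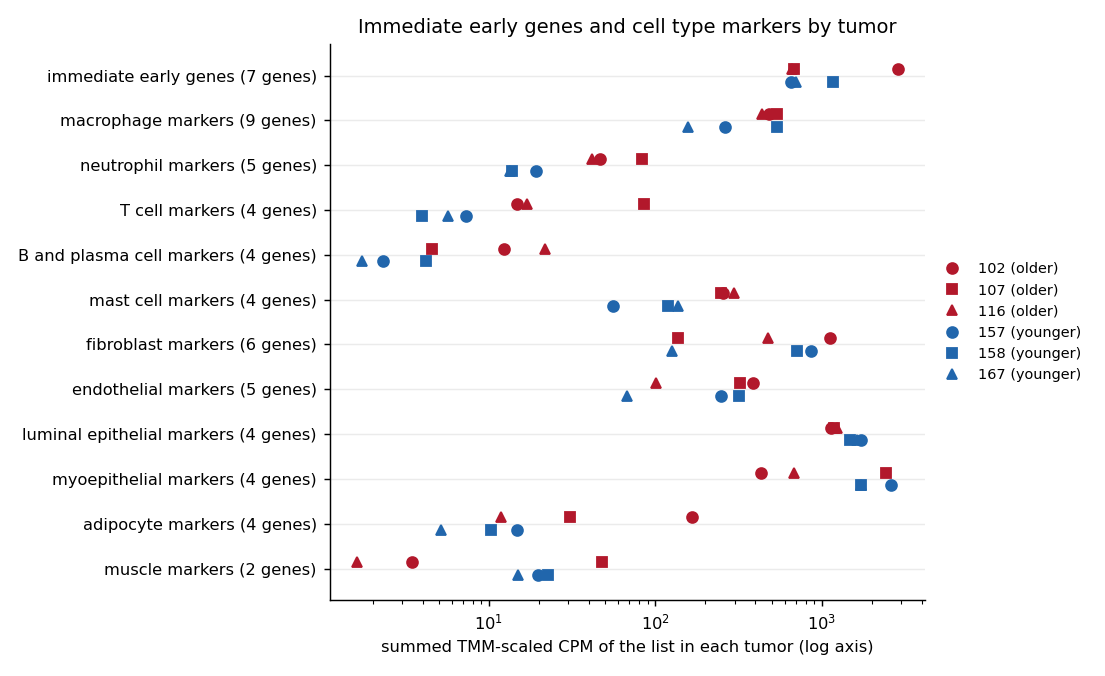
Summed TMM-scaled CPM (log axis) of each marker list and of the immediate early genes in each tumor, with older tumors in red and younger tumors in blue. Tumor 102 is far to the right for immediate early genes and adipocyte markers, and the older tumors are to the right of all younger ones for the T cell, neutrophil, mast cell and B and plasma cell lists, the last 3 through Ncf1, Kit and Jchain. Of the T cell sum in tumor 107, 74.6 CPM is Cd8a.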

How the data were processed

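Bulk RNA-seq of 6 rat mammary tumors was available as whole-number read counts per gene, which the authors deposited as 1 column for each tumor and without normalization. The authors removed ribosomal RNA (the labels name polyA RNA), sequenced paired-end libraries, checked reads with FastQC 0.11.7, trimmed adapters with Trimmomatic 0.38, aligned with STAR 2.7.9a, marked duplicates with Picard 2.18.12 and counted with HTSeq 0.13.5; the processing notes name the build mRatBN7.2. The annotation, the strand setting and the handling of marked duplicates are not given in the sources used here. Without a known strand setting, reads of antisense or overlapping genes cannot be told apart.

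Columns were matched to tumors by tumor number, with 0 columns unused. Rows without a gene name (4367 of 30562 rows, 2.17% to 3.64% of the counts of a tumor) were left out of library totals and tests. Tests were made with edgeR 4.0.16 under R 4.3.3 (filterByExpr with the age group, TMM scaling, quasi-likelihood test without covariates, Benjamini-Hochberg adjustment over all 13139 genes tested, threshold 0.05), limma 3.58.1 and DESeq2 1.42.0. Standard errors were calculated back from the F statistic, and 95% intervals from these and the moderated degrees of freedom. Log2 CPM used a prior count of 2. The script was tested on simulated data with known changes.

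The 10 genes and the pathway and marker lists were chosen with earlier results of these data known. Named are all 10 genes, in each pathway list the 2 genes with the smallest p and any past the threshold, and for each gene tested the 2 genes with the highest correlation. Other genes named, markers and immediate early genes among them, were picked after their values were seen. Of the list genes, Dusp1, Cd4, Krt19, Krt14 and Mylpf have 0 rows in the table under these names. Alternatives were DESeq2 size factors, library totals, DESeq2's Wald test, limma-voom without and with sample quality weights, at least 10 counts in every tumor, all genes with at least 1 count, leaving out the 10 most abundant genes, leaving out each tumor and, added after the data were seen, keeping rows without a name.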

Additional observations from a re-analysis of the deposited data

How the results depend on the processing

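No paired analysis was possible because the labels give older and younger tumors no shared numbers. With edgeR 0 genes passed the threshold and 1128 had an unadjusted p under 0.05. The number past the threshold was 0 under each alternative except DESeq2's Wald test, which called 326 genes, 219 of them higher in older tumors, among them 1 of the 10 genes (Tnfaip3, adjusted p = 0.00764, DESeq2) and 2 of the pathway genes (Il6r and Vcam1). Nfkbia was at an adjusted p of 0.0531 with DESeq2 and between 0.0531 and 0.818 over all alternatives. The 2 genes at an unadjusted p under 0.05 were Socs3 and Tnfaip3 without tumor 167 (edgeR), beside 8.28% of all genes tested. They became 1, Tnfaip3, with sample quality weights in limma-voom, beside 8.76% of all genes tested. These weights were lowest for tumor 102 (0.527). The number of genes whose age groups do not overlap was 2 to 4 with 1 tumor left out, and 4 without younger tumor 167, when Stat3 and Socs3 joined Nfkbia and Tnfaip3. Over all genes tested, the share without overlap was 12.1% with all tumors kept. It was 17.8% to 27.0% with 1 tumor left out, and 26.0% without tumor 167.

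Nfkbia, Tnfaip3 and Socs3 kept their direction under every alternative run. With 1 tumor left out, the log2 fold change ran from 0.96 to 2.50 for Nfkbia, 1.82 to 2.57 for Tnfaip3 and -0.73 to -0.14 for Socs3. Signs changed for Lif (-0.30 to 1.11 with 1 tumor left out, and -0.16 with quality weights), Osmr (-0.16 to 0.34, and -0.11 with quality weights), Il6st (-0.57 to 0.26), Stat3 (-0.40 to 0.0015), Tnf (-0.16 to 1.34), Cntf (-0.69 to 0.12) and Gadd45b (-0.069 to 1.56). The causes were not tested. A filter of at least 10 counts in every tumor removed Lif and Tnf, so that setting gave them no value. Depth limits Il6 and Osm, which had too few counts to be tested, and Tnf, which had at most 18 counts in a tumor.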
